A study of Mus musculus with 7 samples.

Results

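Genes of the Notch pathway, 10 in number, were followed in mouse cardiac cells that carried a lineage label. They comprise the receptors Notch1, Notch2 and Notch3, the ligands Jag1 and Dll4, the target genes Hes1, Hey1, Hey2 and Heyl, and the target and feedback inhibitor Nrarp. The 10 genes were taken by name from a table of 54735 genes, and all 10 passed the filter on low counts that left 17636 genes for testing. Notch receptors are membrane proteins that are activated by ligands of the Jagged and Delta-like families on a neighbouring cell. Ligand binding leads to cleavage of the receptor by an ADAM protease and by gamma-secretase, and the released intracellular domain enters the nucleus, joins the DNA-binding protein RBPJ and switches on Hes, Hey and Nrarp genes. In the heart the pathway is best known from the vessels, where Dll4 marks arterial endothelium and Notch3 marks the mural cells (pericytes and smooth muscle) that wrap the vessels.

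The study traced 2 populations of cardiac fibroblasts after birth. Postn P7 libraries (n = 2) were made at 7 days from GFP-positive cells of PostnMCM;R26eGFP mice, which have a tamoxifen-inducible MerCreMer recombinase driven from the periostin gene. Tcf21 P30 libraries (n = 3) were made at 30 days, and Tcf21 P7 libraries (n = 2) at 7 days, from Tcf21MCM;R26eGFP mice, in which the same kind of recombinase is driven from Tcf21, a transcription factor gene of resident fibroblasts. All 3 groups carried the R26eGFP reporter, all came from pooled males and females, and cells were sorted on GFP before RNA isolation. The label records where the driver was active when tamoxifen was given, so a sorted population holds every cell type in which that driver was then active. The timing of tamoxifen, and whether replicates of a group came from separate animals or litters, are not stated in the labels. The p-values therefore measure how far these particular libraries differ, which may be partly technical. Counts of the Tcf21 P7 pair differed least, with a chi-square per degree of freedom of 3.5. It was 19.6 for the Postn P7 pair and 10.3 to 40.0 for pairs of Tcf21 P30 libraries. The tests draw their spread from all 3 groups, this close pair included. Whether the pair is a technical repeat is not stated in the labels.

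Libraries held 15207835 to 18519528 counts. The 10 fibroblast markers, collagen genes among them, were detected in every library and summed to 35400 to 48740 normalised CPM (reads adjusted for library size and composition), against 1321 to 4898 CPM for 14 endothelial markers, 874.6 to 1944 CPM for 9 pericyte markers and 584.7 to 1153 CPM for 7 smooth muscle markers. No marker of these 4 lists was at 0 in any library, so transcripts of vessel cells were present in every sorted population. Tcf21 P30 replicate 1 stood apart. Its endothelial markers summed to 4898 CPM, against 1472 and 1728 CPM in the other 2 Tcf21 P30 libraries, and its pericyte and smooth muscle sums were also above theirs, at 1529 and 1153 CPM. The calls on the members, and their levels in Tcf21 P30, are therefore given with and without that library. Scaling by library size alone, in place of the trimmed mean of M-values (TMM), moved the median log2 fold change of all genes between Postn P7 and Tcf21 P7 to 0.116. The numbers of genes called higher and lower were then 1741 and 472, against 1149 and 969 with TMM and 1187 and 647 with upper-quartile factors. Between Postn P7 and Tcf21 P30 they were 2802 and 1725 with library size alone, against 2070 and 2206 with TMM.

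On GRCm38 the receptor genes lie at chr2:26457903-26516663 (Notch1, minus strand), chr3:98013527-98150361 (Notch2, plus) and chr17:32120820-32166852 (Notch3, minus). The ligand genes lie at chr2:137081456-137116644 (Jag1, minus) and chr2:119325784-119335962 (Dll4, plus). The target genes lie at chr16:30064384-30067796 (Hes1, plus), chr3:8663359-8667256 (Hey1, minus), chr10:30832359-30842801 (Hey2, minus), chr4:123233556-123249875 (Heyl, plus) and chr2:25180758-25183339 (Nrarp, plus). All 10 are protein-coding genes in GENCODE M21, and Notch1, Notch3, Dll4 and Nrarp overlap an annotated gene on the other strand. The closest case is Nrarp, whose span is nearly covered by the antisense gene Gm38287. Gm38287 had 123 to 822 counts per library, next to 149 to 895 for Nrarp. The labels do not state whether counting used strand, so reads of Nrarp and of its antisense partner cannot be told apart.

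The promoter windows of Hey2 and Nrarp are shown because they hold the only matches, among the 7 members with a matched window, to the RBPJ core GTGGGAA and to the E-box CACGTG that Hey proteins bind. RefSeq promoter sequences of the GRCm38.p6 build, 250 bases upstream of the RefSeq start, were matched for Notch1, Notch2, Notch3, Jag1, Dll4, Hey2 and Nrarp. Hes1, Hey1 and Heyl were not matched. The RefSeq start can lie inside the GENCODE span given above. The Notch1 window (chr2:26503823-26504072) lies wholly inside that span, so its letters are not upstream of the GENCODE gene. Of the 250 bases, 126 of the Jag1 window, 239 of the Notch2 window and 232 of the Hey2 window lie outside the gene. Both strands were searched, also for the shorter TGGGAA, which only the Hey2 window holds, inside GTGGGAA, and for the Hes-type word CACNAG, which the windows of Notch1, Notch2, Notch3, Dll4 and Nrarp hold. The Hey2 window (chr10:30842802-30843033, read along the minus strand) is shown without the bases inside the GENCODE gene. It holds GTGGGAA as its reverse complement, in capitals, from 207 bases before the RefSeq start, which lies inside that gene. The Nrarp window (chr2:25180508-25180757, plus strand) holds CACGTG, in capitals, from 108 bases before the start.
Hey2: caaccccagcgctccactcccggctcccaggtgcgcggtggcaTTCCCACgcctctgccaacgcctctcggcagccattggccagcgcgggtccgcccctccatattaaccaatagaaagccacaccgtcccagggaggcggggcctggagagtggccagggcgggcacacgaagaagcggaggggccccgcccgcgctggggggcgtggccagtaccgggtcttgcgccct
Nrarp: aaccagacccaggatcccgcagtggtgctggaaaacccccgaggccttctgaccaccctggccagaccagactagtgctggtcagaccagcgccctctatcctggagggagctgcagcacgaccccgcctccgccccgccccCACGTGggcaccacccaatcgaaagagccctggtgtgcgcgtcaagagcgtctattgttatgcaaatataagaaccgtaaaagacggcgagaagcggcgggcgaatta
Among all 32851 promoter windows of the same length, 5.42% hold GTGGGAA, 21.6% hold TGGGAA, 6.02% hold CACGTG and 36.7% hold CACNAG. A match of this kind describes the letters in the window and does not show that a factor binds there.

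Levels of different genes were compared as normalised CPM per kilobase of exon. The length was that of all annotated exons of a gene merged, 14232 bases for Notch1. Where the transcript in use is shorter, its level per kilobase would be higher, so close ranks depend on this choice. Heyl had the highest level of the 10 genes in all 3 groups, at 114 ± 5.59 in Postn P7, 107 ± 12.9 in Tcf21 P30 and 81.1 ± 5.16 in Tcf21 P7 (SD; n = 2, 3 and 2). Hey2 was the lowest, at 2.55 ± 0.021 in Postn P7, 0.791 ± 0.303 in Tcf21 P30 and 0.933 ± 0.360 in Tcf21 P7. The 2 genes that head and close the list are thus both transcriptional repressors of the Hey family. Hes1, a repressor of the related Hes family, came second in Tcf21 P30 at 41.7 ± 2.60 and in Tcf21 P7 at 45.2 ± 1.30, and stood at 33.4 ± 2.16 in Postn P7. Notch3 was at 40.5 ± 16.2 in Postn P7, where its range overlapped that of Hes1, at 11.9 ± 5.47 in Tcf21 P30 and at 32.4 ± 0.12 in Tcf21 P7. In Postn P7 the order from the top was Heyl, Notch3, Hes1, Jag1, Hey1, Nrarp, Notch2, Notch1, Dll4 and Hey2, with overlapping ranges for Notch3 and Hes1, for Hey1, Nrarp and Notch2 as neighbours, and for Notch1 and Dll4. In Tcf21 P30 it was Heyl, Hes1, Notch2, Notch3, Jag1, Hey1, Dll4, Nrarp, Notch1 and Hey2, and from Notch2 to Notch1 each neighbour overlapped the next. With Tcf21 P30 replicate 1 left out, an alternative chosen after the data were seen, the order was Heyl, Hes1, Notch2, Jag1, Notch3, Hey1, Nrarp, Notch1, Dll4 and Hey2. Dll4 then averaged 3.07 ± 0.338, against 9.84 with that library, Nrarp 3.98 ± 0.452 against 9.26, and Notch3 8.89 ± 2.16 against 11.9 (SD, n = 2 without it). In Tcf21 P7 the order was Heyl, Hes1, Notch3, Jag1, Notch2, Hey1, Nrarp, Dll4, Notch1 and Hey2. There only the neighbours Dll4 and Notch1, at 5.60 ± 0.455 and 4.81 ± 0.774, had overlapping ranges.

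Within the receptor family, Notch4 included, Notch2 had the largest share in Tcf21 P30 replicates 2 and 3, and Notch3 in Tcf21 P30 replicate 1 and in all 4 P7 libraries. Notch3 made up 63.7% and 59.8% of receptor CPM per kilobase in Postn P7, 34.5%, 33.4% and 30.9% in Tcf21 P30, and 56.6% and 56.5% in Tcf21 P7. Notch2 made up 17.8% and 22.8% in Postn P7, 25.1%, 42.3% and 50.3% in Tcf21 P30, and 27.9% and 30.8% in Tcf21 P7. The Notch3 shares of the 3 Tcf21 P30 libraries lay below those of all 4 P7 libraries, Tcf21 P30 replicate 1 included. Among the ligands Jag1 took 65.2% and 75.6% in Postn P7, 29.3%, 60.2% and 69.3% in Tcf21 P30, and 73.3% and 73.8% in Tcf21 P7. In Tcf21 P30 replicate 1 the largest ligand share was that of Dll4, at 45.8%. Among Hes1 and the Hey genes, Heyl took 57.0% to 70.1% in every library.

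**Figure D1:**
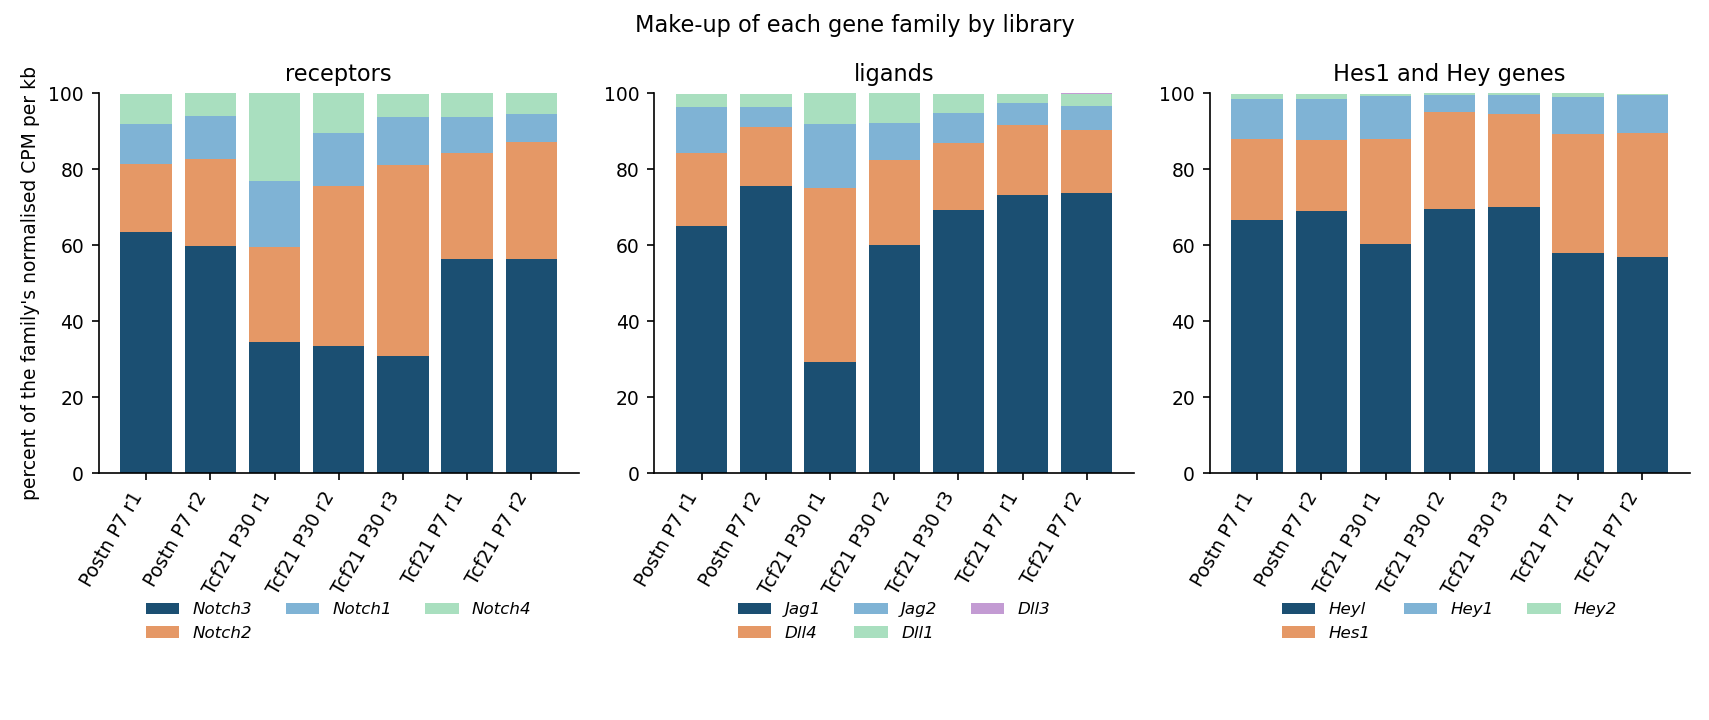
Stacked bars give the percent of each family's summed normalised CPM per kilobase of exon (y axis) in each library (x axis; r, replicate) for the receptors, the ligands, and Hes1 with the Hey genes. Notch3 takes 30.9% to 34.5% of receptors in the Tcf21 P30 libraries, against 56.5% to 63.7% in the P7 libraries, and Dll4 holds 45.8% of ligands in Tcf21 P30 replicate 1.

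The members differed in how far they followed the endothelial-rich library. Dll4 in Tcf21 P30 replicate 1 was 7.61-fold the mean of the other 2 Tcf21 P30 libraries, and Nrarp was 4.98-fold. The 14 endothelial markers were up to 7.39-fold, with a median of 5.46-fold. No marker was above Dll4, and 8 of the 14 were above Nrarp, Cldn5 (7.39-fold), Cdh5 (6.77-fold) and Flt1 (6.49-fold) the most. Their sum was 3.06-fold, and Tek and Eng made up 51.0% of it in the other 2 libraries. Tek was at 539.7 CPM in replicate 1, against a mean of 491.3 CPM in the other 2, and Eng was 1.54-fold. Notch1 was 2.47-fold, Hey1 2.25-fold, Notch3 2.02-fold, Hey2 1.85-fold and Jag1 1.45-fold, around the 1.97-fold of the smooth muscle sum and the 1.73-fold of the pericyte sum. These sums rest most on Smtn and Pdgfrb, at 330.8 to 367.2 and 564.4 to 602.5 CPM over the Tcf21 P30 libraries. Some single markers spread further there: Myh11 from 32.5 to 227.7 CPM, Rgs5 from 42.2 to 328.4 CPM and Mcam from 14.0 to 112.1 CPM. Ndufa4l2 stayed at 74.9 to 88.2 CPM. The folds of the sums therefore do not stand for each mural marker. Hes1 at 1.05-fold, Notch2 at 0.997-fold and Heyl at 0.814-fold did not stand out in replicate 1, and the fibroblast marker sum was at 0.826-fold. The part that vessel cells had in these levels was not tested.

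**Figure D2:**
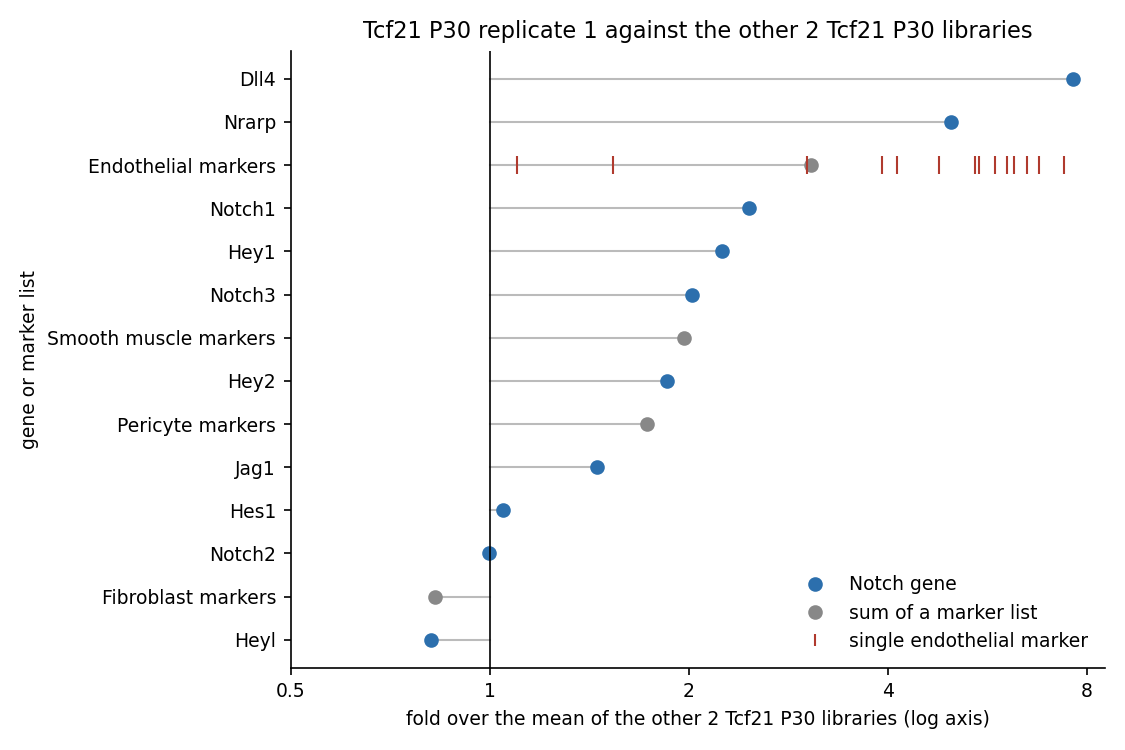
Points give the level in Tcf21 P30 replicate 1 as a fold of the mean of the other 2 Tcf21 P30 libraries (x axis, log scale) for each member and for the summed markers of 4 cell types (y axis); red ticks are the 14 single endothelial markers. Dll4 at 7.61-fold and Nrarp at 4.98-fold lie beyond the endothelial sum at 3.06-fold, while the single markers reach 7.39-fold, and Heyl lies beside the fibroblast markers, at 0.814 and 0.826.

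Postn P7 and Tcf21 P7 share the age and differ in the driver of the label. Hey2 and Heyl were higher in Postn P7 and Hes1 was lower, while the receptors, the ligands, Hey1 and Nrarp did not pass the test. So 2 of the 10 members were called higher and 1 lower at an adjusted p of 0.05 (edgeR quasi-likelihood test, Benjamini-Hochberg over all genes), when 6.52% of all genes were called higher and 5.49% lower. The median log2 fold change of the members was 0.35, against 0.00 over all genes. In bulk libraries of sorted cells, more cells that express a gene and more of its RNA in each cell cannot be told apart.

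Hey2, a repressor that in the vessel wall marks arteries, had 11.8 and 11.7 CPM in the Postn P7 pair, 5.24, 2.85 and 2.80 CPM in Tcf21 P30, and 5.46 and 3.12 CPM in Tcf21 P7. Both Postn P7 libraries lay above all 5 Tcf21 libraries, on raw counts of 223 and 182 against 45 to 96. The log2 fold change over Tcf21 P7 was 1.45 ± 0.38 (SE), a 2.73-fold difference (adjusted p = 0.045). Heyl, which is abundant in mural cells, had 564 and 604 CPM in the Postn P7 pair, 476, 605 and 563 CPM in Tcf21 P30, and 434 and 396 CPM in Tcf21 P7. The Tcf21 P7 pair was the lowest of the 7 libraries. Heyl was 1.41-fold higher in Postn P7 than in Tcf21 P7 (log2 fold change 0.49 ± 0.13, adjusted p = 0.048). Hes1, which many signals besides Notch can induce, had 71.2 and 65.0 CPM in the Postn P7 pair, 87.5, 88.5 and 78.9 CPM in Tcf21 P30, and 93.9 and 90.2 CPM in Tcf21 P7. Both Postn P7 libraries lay below all Tcf21 libraries, and the log2 fold change against Tcf21 P7 was -0.44 ± 0.10 (adjusted p = 0.033).

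Hey1 had 56.9 and 60.5 CPM in the Postn P7 pair, against 46.5 and 44.4 CPM in Tcf21 P7, and did not pass the test (log2 fold change 0.37 ± 0.41, adjusted p = 0.6). Without Tcf21 P30 replicate 1, which enters the comparison only through the shared estimate of spread, the difference was 0.38 ± 0.10 and Hey1 was called higher (adjusted p = 0.034, in a range of 0.034 to 0.79 over the 17 alternatives). Hey2, Heyl and Hes1 kept their calls without that library, giving 3 members higher and 1 lower, when 10.4% of all genes were called higher and 8.27% lower. The 3 calls made on all libraries were lost when either Postn P7 library, either Tcf21 P7 library or Tcf21 P30 replicate 3 was left out, with adjusted p-values of 0.062 to 0.23 for Hey2, 0.095 to 0.31 for Heyl and 0.06 to 0.23 for Hes1, and the direction held in each case. The Heyl call was also lost with size factors as in DESeq2, upper-quartile factors and the replicate block (adjusted p = 0.056, 0.061 and 0.068), and the Hes1 call with upper-quartile factors and library size alone (0.053 and 0.086). The Hey2 log2 fold change was 1.92 without Tcf21 P7 replicate 1 and 1.12 without Tcf21 P7 replicate 2.

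Notch1, an endothelial receptor, had 122 and 78.1 CPM in the Postn P7 pair, against 76.3 and 60.7 CPM in Tcf21 P7 (log2 fold change 0.55 ± 0.55, adjusted p = 0.56). Nrarp had 47.3 and 28.6 CPM in the Postn P7 pair, against 23.5 and 22.5 CPM in Tcf21 P7 (0.72 ± 0.89, adjusted p = 0.64). For both genes the Postn P7 libraries lay above the Tcf21 P7 libraries, by amounts that the test did not separate from the spread. Dll4 had 29.5 and 16.4 CPM in the Postn P7 pair, on either side of 22.8 and 20.3 CPM in Tcf21 P7 (0.09 ± 1.13, adjusted p = 0.97). Jag1 had 152 and 119 CPM in the Postn P7 pair, against 136 and 137 CPM in Tcf21 P7, and the interval of the log2 fold change ran from -0.72 to 0.70 (95%). Notch3 had 420.2 and 235 CPM in the Postn P7 pair, on either side of 261.5 and 263 CPM in Tcf21 P7 (log2 fold change 0.32 ± 0.47, adjusted p = 0.69). For these genes a difference was not detectable, and the intervals leave room for one in either direction. Notch2, a broadly expressed receptor, had 157 and 120 CPM in the Postn P7 pair, against 172 and 191 CPM in Tcf21 P7 (adjusted p = 0.38). Beside these values, the pericyte markers summed to 1944 and 1508 CPM in the Postn P7 pair, against 959 and 898.8 CPM in Tcf21 P7, and 1 of the 9 was called higher (4 without Tcf21 P30 replicate 1). The 7 arterial markers summed to 741 and 738 CPM in the Postn P7 pair, against 469 and 443 CPM in Tcf21 P7, with none called (3 called higher without that library). Nrp1 was the largest part of these sums, at 480.1 to 587.7 CPM in Postn P7 and 287.6 to 308.7 CPM in Tcf21 P7. Nrp1, Gja4 and Sox17 were above Tcf21 P7 in each Postn P7 library, while Gja5, Efnb2, Cxcr4 and Unc5b had overlapping ranges. The endothelial sums were 2063 and 1321 CPM in the Postn P7 pair, against 1631 and 1435 CPM in Tcf21 P7. The part of these cell types in the Hey2 and Heyl differences was not tested. The 9 macrophage markers summed to 320.4 and 448.2 CPM in the Postn P7 pair, against 1129 and 1136 CPM in Tcf21 P7, and 8 of the 9 were called lower. Their part in the Hes1 difference was not tested.

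**Figure D3:**
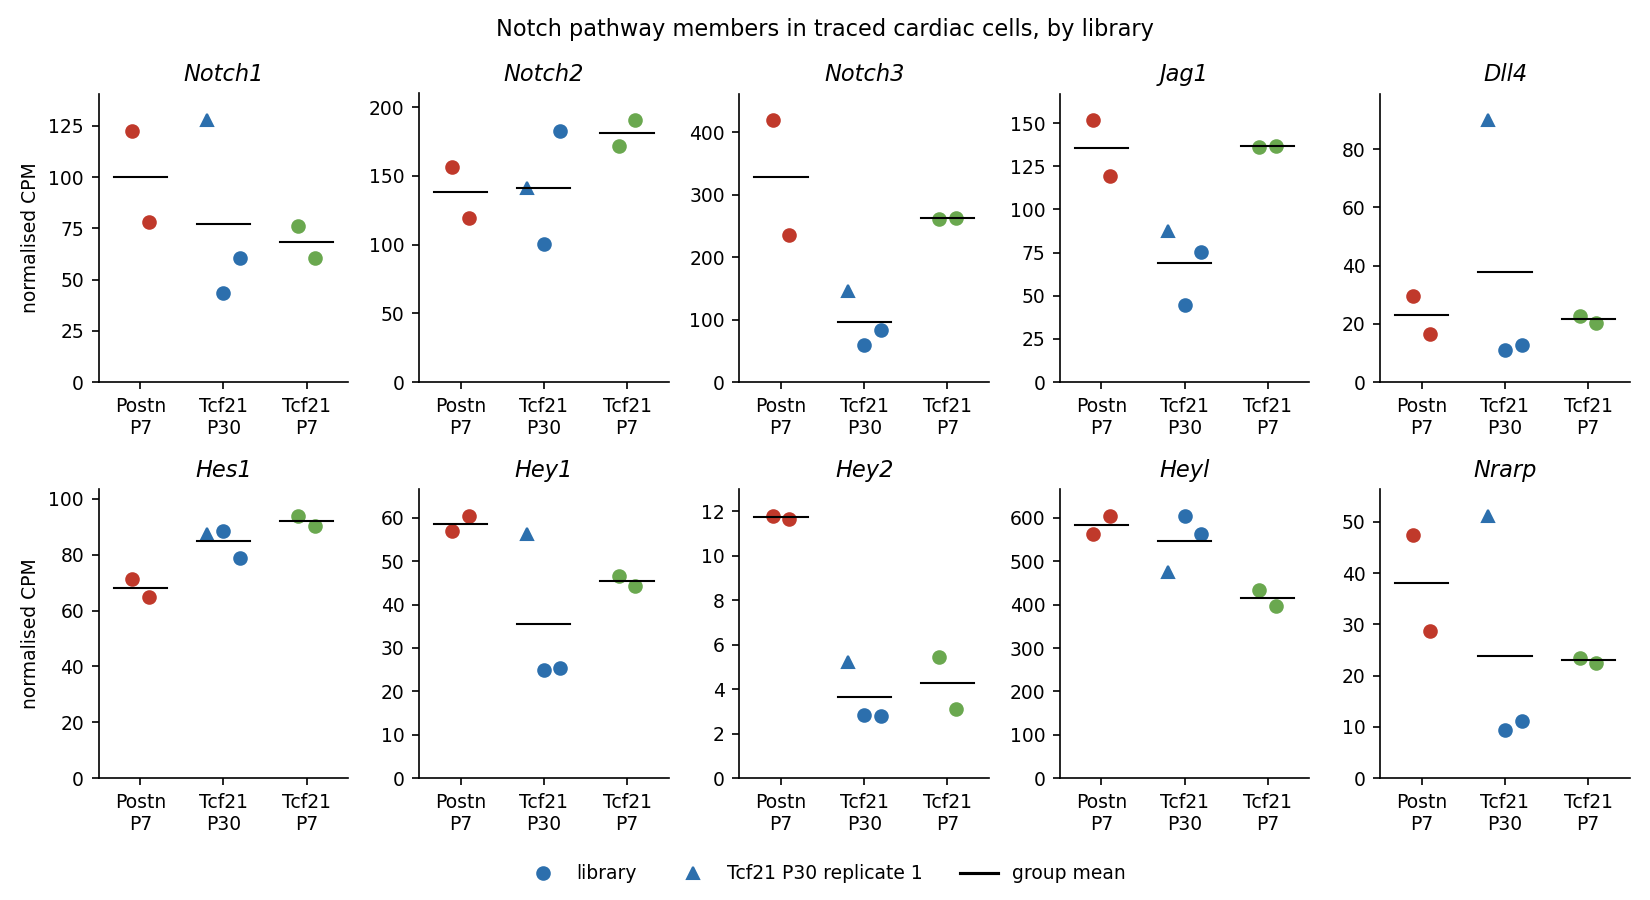
Each panel gives normalised CPM (y axis, from 0) of 1 gene in the Postn P7, Tcf21 P30 and Tcf21 P7 libraries (x axis); points are libraries, lines are group means and the triangle is Tcf21 P30 replicate 1. Hey2 is at 11.7 and 11.8 CPM in the Postn P7 pair and at or below 5.46 CPM elsewhere, and the triangle lies far above the other Tcf21 P30 points for Dll4 and Nrarp.

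Tcf21 P30 and Tcf21 P7 share the driver and differ in age. Jag1 was lower and Heyl higher at P30, and Notch3 had the largest difference of the members without passing the test on all libraries. The calls were 1 member higher and 1 lower of 10, when 16.7% of all genes were called higher and 15.0% lower. The median log2 fold change of the members was -0.18, against 0.03 over all genes. Without Tcf21 P30 replicate 1 the account differed: Notch3, Jag1, Dll4, Hey1 and Nrarp were lower and Heyl was higher, so that 1 member was called higher and 5 lower, when 17.9% of all genes were called higher and 16.9% lower, and the members' median was -0.72 against 0.01 over all genes. Beside these values, the 9 macrophage markers summed to 595, 400.7 and 417 CPM in Tcf21 P30, against 1129 and 1136 CPM in Tcf21 P7. Of the 9, 8 were called lower with that library and 8 without it, and their part in the members' differences was not tested.

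Jag1, a ligand of endothelial and mural cells, had 87.2, 44.8 and 75.3 CPM in Tcf21 P30, against 136 and 137 CPM in Tcf21 P7. Every P30 library lay below both P7 libraries. The log2 fold change was -0.98 ± 0.27 (adjusted p = 0.034), and -1.18 ± 0.25 without Tcf21 P30 replicate 1 (adjusted p = 0.013). Heyl, with the CPM given above, was 1.32-fold higher at P30 (log2 fold change 0.40 ± 0.12, adjusted p = 0.037), and all 3 P30 libraries lay above both P7 libraries. Without Tcf21 P30 replicate 1 its log2 fold change was 0.50 ± 0.09 (adjusted p = 0.0043). Both calls were lost when either Tcf21 P7 library or Tcf21 P30 replicate 3 was left out (adjusted p of 0.06 to 0.12 for Jag1 and 0.12 to 0.28 for Heyl). Jag1 also lost its call without either Postn P7 library (0.054 and 0.055), and Heyl without Tcf21 P30 replicate 2 (0.088). The Heyl call was lost as well with upper-quartile factors, with only the groups compared and with the replicate block (adjusted p = 0.055, 0.054 and 0.085).

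Notch3, the receptor of mural cells, had 145, 59.55 and 84.2 CPM in Tcf21 P30, against 261.5 and 263 CPM in Tcf21 P7. No P30 library reached the P7 level, but the 3 differed among themselves. The log2 fold change was -1.44 ± 0.43 with an adjusted p of 0.053, and -1.86 ± 0.31 without Tcf21 P30 replicate 1 (adjusted p = 0.0077). Over all 17 alternatives the log2 fold change stayed between -1.86 and -1.20, and the call was made in 8 of them. The smooth muscle markers summed to 1153, 585.3 and 584.7 CPM in Tcf21 P30, against 919.7 and 951.4 CPM in Tcf21 P7, and without Tcf21 P30 replicate 1 6 of 7 were called lower. The pericyte markers summed to 1529, 874.6 and 895.8 CPM in Tcf21 P30, against 959 and 898.8 CPM in Tcf21 P7, with 1 higher and 4 lower of 9 without that library. Per 100 CPM of pericyte markers, Notch3 was at 9.51, 6.81 and 9.40 CPM in Tcf21 P30, against 27.3 and 29.2 CPM in Tcf21 P7. Per 100 CPM of smooth muscle markers it was at 12.6, 10.2 and 14.4 CPM in Tcf21 P30, against 28.4 and 27.6 CPM in Tcf21 P7. On both scales each P30 library, replicate 1 included, lay below each P7 library. The pericyte scale rests most on Pdgfrb, which averaged 584.8 CPM in Tcf21 P30 against 420.5 CPM in Tcf21 P7 and was called higher. Cspg4 and Mcam averaged 36.2 and 49.8 CPM in Tcf21 P30, against 61.6 and 83.5 CPM in Tcf21 P7, and were not called. These P30 means cover wide ranges. Cspg4 ran from 15.54 to 71.25 CPM in Tcf21 P30, against 60.59 to 62.57 CPM in Tcf21 P7. Mcam ran from 14.01 to 112.1 CPM, against 80.56 to 86.39 CPM. Of the 9 pericyte markers, 6 were higher and 3 lower at P30 on all libraries. The ratio thus depends on the markers summed, and the part of mural cells in it was not tested.

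Dll4, the arterial ligand, had 90.1, 10.9 and 12.8 CPM in Tcf21 P30, against 22.8 and 20.3 CPM in Tcf21 P7. Replicate 1 was above both P7 libraries and the other 2 P30 libraries were below them. The log2 fold change was 0.81 ± 1.05 on all libraries (adjusted p = 0.6) and -0.86 ± 0.27 without replicate 1 (adjusted p = 0.039). Nrarp, which promotes loss of the Notch intracellular domain, had 51.2, 9.45 and 11.1 CPM in Tcf21 P30, against 23.5 and 22.5 CPM in Tcf21 P7. It showed the same split, with a log2 fold change of 0.05 ± 0.82 on all libraries (adjusted p = 0.97) and -1.15 ± 0.24 without replicate 1 (adjusted p = 0.0077). Hey1, a repressor of endothelial and mural cells, had 56.4, 24.9 and 25.3 CPM in Tcf21 P30, against 46.5 and 44.4 CPM in Tcf21 P7, and its log2 fold change was -0.36 ± 0.37 on all libraries (adjusted p = 0.51) and -0.85 ± 0.10 without replicate 1 (adjusted p = 5.0e-04). Over the 17 alternatives the log2 fold change ran from -0.86 to 1.23 for Dll4, from -1.16 to 0.42 for Nrarp and from -0.85 to -0.16 for Hey1. For these 3 genes the direction or the call at P30 therefore depended on 1 library, and no direction is given for the group of 3. Notch1 had 128, 43.4 and 60.3 CPM in Tcf21 P30, against 76.3 and 60.7 CPM in Tcf21 P7, and was not called with or without replicate 1 (adjusted p = 0.82 and 0.29). Notch2 had 141, 100.5 and 183 CPM in Tcf21 P30, overlapping the Tcf21 P7 pair (log2 fold change -0.36 ± 0.25, adjusted p = 0.31). Notch2, Hes1 and Hey2 were not called with or without replicate 1.

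**Figure D4:**
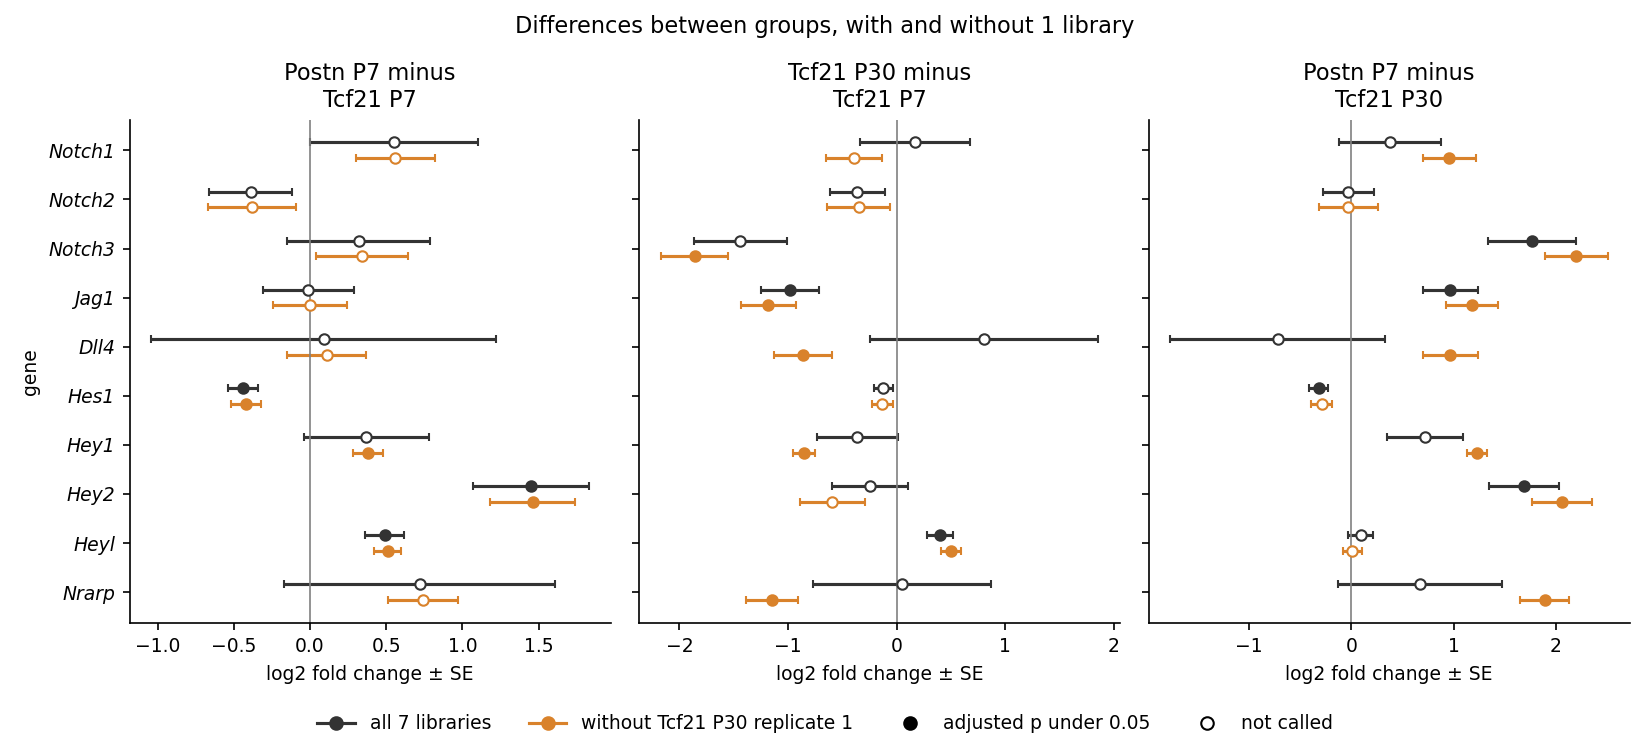
Points give the log2 fold change (x axis) of each member (y axis) in the 3 comparisons, with bars of 1 SE, on all 7 libraries (black) and without Tcf21 P30 replicate 1 (orange); filled points have an adjusted p under 0.05. Without that library Dll4 and Nrarp move to the other side of 0 in Tcf21 P30 minus Tcf21 P7, at -0.86 and -1.15, while Hey2 stays above 1 in both comparisons with Postn P7.

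Relative to summed markers the split within Tcf21 P30 was smaller for Dll4 and Nrarp. In replicate 1, Dll4 was 2.49-fold the mean of the other 2 libraries per endothelial CPM, 4.41-fold per pericyte CPM and 3.87-fold per smooth muscle CPM, and Nrarp was 1.63-fold, 2.89-fold and 2.53-fold on these scales. Per 100 CPM of endothelial markers, Dll4 was at 1.43 and 1.24 CPM in the Postn P7 pair, at 1.84, 0.741 and 0.738 CPM in Tcf21 P30, and at 1.40 and 1.42 CPM in Tcf21 P7. The highest of the 7 libraries was 8.26-fold the lowest in CPM and 2.49-fold the lowest on this scale. Nrarp was at 2.29 and 2.17 CPM in the Postn P7 pair, at 1.05, 0.642 and 0.642 CPM in Tcf21 P30, and at 1.44 and 1.57 CPM in Tcf21 P7, and over the 7 libraries its range was 5.42-fold in CPM, 3.57-fold on this scale, 3.10-fold per pericyte CPM and 2.75-fold per smooth muscle CPM. On this scale the 3 groups did not overlap for Nrarp, which was highest in Postn P7 and lowest in Tcf21 P30. Notch1 was likewise at 5.93 and 5.91 CPM in the Postn P7 pair, at 2.61, 2.95 and 3.49 CPM in Tcf21 P30, and at 4.68 and 4.23 CPM in Tcf21 P7. Notch3 spread 6.86-fold per endothelial CPM and 7.06-fold in CPM. For Notch2, Jag1, Hes1, Hey1, Hey2 and Heyl the range was wider per endothelial CPM than in CPM, as for Hey2, at 8.25-fold and 4.21-fold. These ratios divide by markers that themselves differ between libraries and were not tested. Tek and Eng, 51.0% of the endothelial sum in Tcf21 P30 replicates 2 and 3, ran against the group order of Nrarp and Notch1. Mean Tek climbed from 378.9 CPM (Postn P7) via 441.2 (Tcf21 P7) to 507.4 (Tcf21 P30). Mean Eng did likewise, from 225.5 via 263.5 to 383.4. Mean Kdr, at 220.4, 125.3 and 393.3, was lowest in Tcf21 P7. How far the markers divided by set the order of either ratio was not tested.

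**Figure D5:**
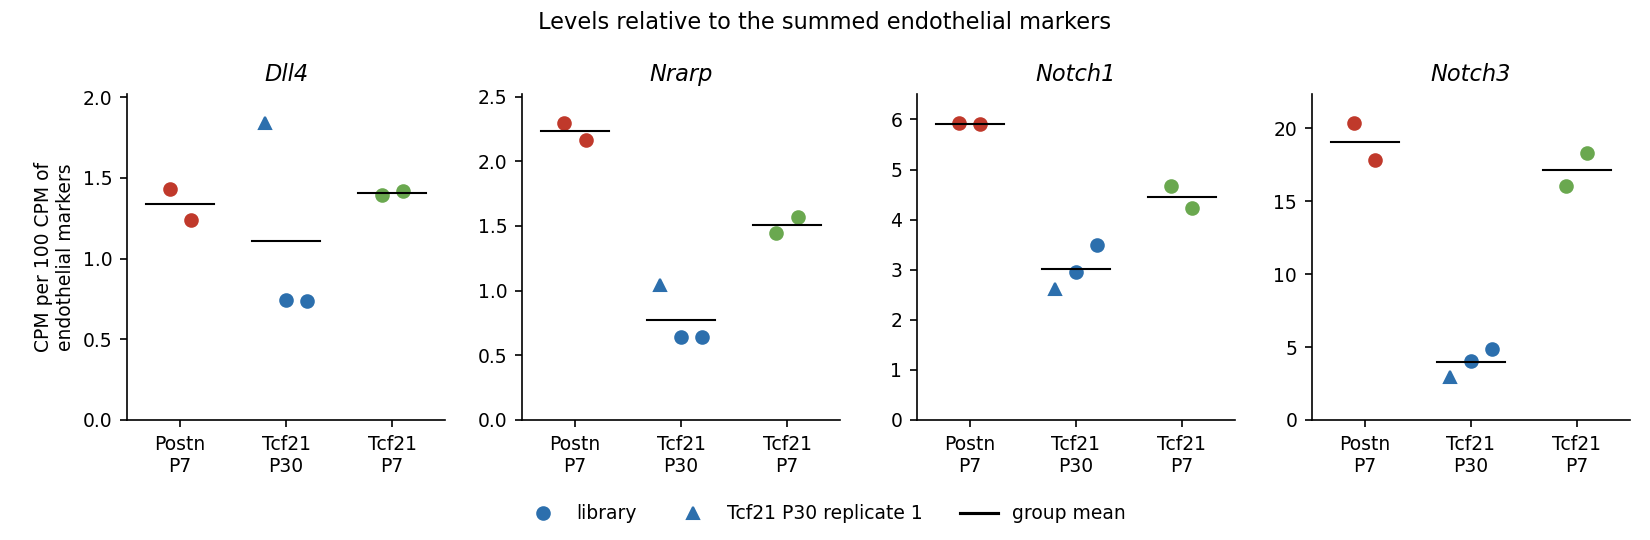
Panels give the CPM of Dll4, Nrarp, Notch1 and Notch3 per 100 CPM of the 14 summed endothelial markers (y axis, from 0) in each library of the 3 groups (x axis); lines are group means and the triangle is Tcf21 P30 replicate 1. That library lies below the other 2 Tcf21 P30 libraries for Notch1, at 2.61 against 2.95 and 3.49, and above them for Nrarp, at 1.05 against 0.642 and 0.642, and for Dll4, at 1.84 against 0.741 and 0.738.

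Postn P7 and Tcf21 P30 differ in both driver and age, which cannot be told apart in this pair, and the comparison shares its libraries with the other 2. Hey2, Notch3 and Jag1 were higher in Postn P7 and Hes1 was lower. These were 3 members higher and 1 lower of 10, when 11.7% of all genes were called higher and 12.5% lower, and the members' median log2 fold change was 0.52 against -0.01 over all genes. Without Tcf21 P30 replicate 1, 7 members were called higher, namely Notch1, Notch3, Jag1, Dll4, Hey1, Hey2 and Nrarp, and none lower, when 15.3% of all genes were called higher and 13.9% lower. The members' median was then 1.07, against 0.03 over all genes.

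The Hey2 difference was 3.23-fold (log2 fold change 1.69 ± 0.34, adjusted p = 0.0084) and 2.06 on the log2 scale without Tcf21 P30 replicate 1 (adjusted p = 0.0011). It was called in all 17 alternatives, with log2 fold changes of 1.55 to 2.06 and an adjusted p of at most 0.039. No other call on a member was kept in every alternative. Notch3 was 3.40-fold higher in Postn P7 (log2 fold change 1.77 ± 0.43, adjusted p = 0.036), and 2.20 ± 0.31 on the log2 scale without Tcf21 P30 replicate 1 (adjusted p = 0.0048). Jag1 was 1.96-fold higher (log2 fold change 0.97 ± 0.27, adjusted p = 0.043), and 1.18 on the log2 scale without that library (adjusted p = 0.015). Hes1 had a log2 fold change of -0.32 ± 0.09 (adjusted p = 0.04) and of -0.29 without it (adjusted p = 0.065).

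When libraries were left out one at a time, Notch3 was called only without Tcf21 P30 replicate 1, and its adjusted p was 0.052 to 0.18 without any other library. Jag1 was called without Tcf21 P30 replicate 1 or replicate 2 and had an adjusted p of 0.066 to 0.21 without any other library. Hes1 lost its call without any 1 of the 7 libraries, at 0.065 to 0.2. Dll4 had a log2 fold change of -0.72 ± 1.05 on all libraries (adjusted p = 0.69) and of 0.97 without Tcf21 P30 replicate 1 (adjusted p = 0.028), so its direction turned with that library. Nrarp and Hey1, at 0.67 ± 0.80 and 0.72 ± 0.37 on all libraries, were at 1.89 and 1.23 without it (adjusted p = 7.5e-04 and 6.2e-05), and Notch1 was at 0.96 (adjusted p = 0.039). Over the 17 alternatives the log2 fold change ran from -1.21 to 0.97 for Dll4 and from 0.26 to 1.89 for Nrarp. It ran from 0.55 to 1.27 for Hey1 and from 0.02 to 0.96 for Notch1. Beside these values, 7 of 9 pericyte markers, 6 of 7 smooth muscle markers and 4 of 7 arterial markers were called higher in Postn P7 without that library, against none of each list with it. The part of these cell types in the members' calls was not tested. Heyl did not pass, at 0.09 ± 0.12 with a 95% interval of -0.18 to 0.37, and Notch2 was at -0.03 ± 0.25 with an interval of -0.63 to 0.56. Leaving out Tcf21 P30 replicate 1, they were at 0.01 ± 0.09 and -0.03 ± 0.29, and neither was called.

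The rest of the pathway was described from 6 lists of 57 other genes. Of the other receptors and ligands, 6 of 7 were tested. Dlk1, a Delta-like protein without the receptor-activating domain that is known from fetal tissue and is imprinted, had 15.4 and 21.7 CPM in the Postn P7 pair, 0.442, 0.824 and 0.549 CPM in Tcf21 P30, and 76.4 and 71.1 CPM in Tcf21 P7. The 3 groups did not overlap. It was lower in Postn P7 than in Tcf21 P7 (log2 fold change -1.99 ± 0.21, adjusted p = 0.0033), lower in Tcf21 P30 than in Tcf21 P7 (-6.92 ± 0.24, adjusted p = 8.2e-06) and higher in Postn P7 than in Tcf21 P30 (4.92 ± 0.24, adjusted p = 1.7e-05), and each of these calls was kept when any 1 library was left out. Dner, a neuronal Notch ligand, fell with age by 1.81 on the log2 scale (adjusted p = 0.011). Dlk1 and Dner were the only called genes of this list: 1 lower between Postn P7 and Tcf21 P7, 2 lower between Tcf21 P30 and Tcf21 P7, and 1 higher between Postn P7 and Tcf21 P30.

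Of the 10 cleavage genes, Psen2 and Psenen, both of the gamma-secretase complex, were lower in Postn P7 than in Tcf21 P7 (log2 fold change -0.71 and -0.40, adjusted p = 0.018 and 0.039). Adam17, a protease that sheds many membrane proteins, was the only cleavage gene called between Tcf21 P30 and Tcf21 P7. It had 244, 264 and 262.5 CPM in Tcf21 P30, against 129 and 130 CPM in Tcf21 P7, and rose by 0.99 ± 0.10 on the log2 scale (adjusted p = 3.4e-04). Between Postn P7 and Tcf21 P30, Aph1b (0.38) was higher, and Adam17 (-0.94), Psen2 (-0.81) and Psenen (-0.48) were lower. The median of the list was -0.14 in Postn P7 against Tcf21 P7, 0.02 in Tcf21 P30 against Tcf21 P7 and -0.29 in Postn P7 against Tcf21 P30, next to 0.00, 0.03 and -0.01 over all genes.

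Of 5 glycosylation genes none was called between Postn P7 and Tcf21 P7, where Poglut1, an O-glucosyltransferase that modifies Notch receptors, was at 71.4 and 74.8 CPM in the Postn P7 pair and at 69.6 and 75.7 CPM in Tcf21 P7. Poglut1 was the only one called in the other comparisons, higher by 0.29 in Tcf21 P30 than in Tcf21 P7 and at -0.28 in Postn P7 against Tcf21 P30. Of 13 trafficking and turnover genes, Dtx3, a Deltex ubiquitin ligase, was higher in Postn P7 than in Tcf21 P7 (log2 fold change 1.00 ± 0.12, adjusted p = 0.0053), at 129 and 155 CPM in the Postn P7 pair, 96.4, 108 and 112 CPM in Tcf21 P30, and 69.3 and 72.9 CPM in Tcf21 P7. With age, Dtx3 (0.57), Dtx3l (1.14) and Numb (0.32), an inhibitor of Notch, were higher, and Neurl1a (-2.21), a ligase that acts on ligands, was lower. Between Postn P7 and Tcf21 P30, Neurl1a (2.43) and Dtx3 (0.43) were higher and Dtx3l (-1.02) and Numb (-0.29) were lower.

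Of 15 genes of the nuclear complex and its co-repressors, Tle2, a Groucho-type co-repressor, was the only one called between Postn P7 and Tcf21 P7 (log2 fold change 0.70 ± 0.13, adjusted p = 0.019). With age, the co-activator gene Maml2 (0.71), the acetyltransferase gene Kat2b (0.94) and Tle2 (0.65) were higher and Maml1 (-0.43), Tle1 (-0.40) and Tle3 (-0.43) were lower, so 3 of 15 were called in each direction, near the 16.7% higher and 15.0% lower of all genes. Kat2b was at -0.68 in Postn P7 against Tcf21 P30 and was the only call of this list there. Of 7 other Hes and Bhlhe genes, Hes2, Hes3 and Hes5 were too low to test. Bhlhe40, a repressor that also serves the circadian clock, had 144 and 225 CPM in the Postn P7 pair, 289, 362 and 342 CPM in Tcf21 P30, and 165 and 158 CPM in Tcf21 P7. With Bhlhe41 it was higher in Tcf21 P30 than in Tcf21 P7 (log2 fold change 1.03 ± 0.19 and 0.90 ± 0.18, adjusted p = 0.0059 and 0.0082) and lower in Postn P7 than in Tcf21 P30 (-0.84 ± 0.19 and -0.75 ± 0.18). Neither was called between Postn P7 and Tcf21 P7.

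The calls on these other pathway genes depended on single libraries to different degrees. Between Postn P7 and Tcf21 P7, leaving out each of the 7 libraries in turn kept the call of Dtx3 in 5 fits, of Psen2 and Tle2 in 3 each and of Psenen in 1. Between Tcf21 P30 and Tcf21 P7, the calls of Adam17, Neurl1a, Dtx3l and Kat2b were kept in all 7 such fits, and those of Poglut1 in 3 and Maml1 in 0. Between Postn P7 and Tcf21 P30, Adam17, Psen2, Psenen, Neurl1a and Dtx3l kept their calls in all 7, Aph1b and Bhlhe41 in 2 each, Poglut1 in 1 and Numb in 0, and the last pair kept theirs in only 1 each of 8 other processing choices. Without Tcf21 P30 replicate 1 the calls named above were kept, apart from Maml1 between Tcf21 P30 and Tcf21 P7 (-0.38, adjusted p = 0.087) and Numb between Postn P7 and Tcf21 P30 (-0.24, adjusted p = 0.077). Further genes were called without it. In Postn P7 against Tcf21 P7 these were Spen (0.42) and Adam10 (0.33), which were higher, and Pofut1 (-0.37) and Numbl (-0.42), which were lower. In Tcf21 P30 against Tcf21 P7, Rfng (0.47) was higher and Lfng (-2.06), Numbl (-0.31) and Neurl1b (-1.59) were lower. In Postn P7 against Tcf21 P30, Tle1 (0.40), Spen (0.48) and Neurl1b (1.76) were higher and Mib2 (-0.30), Dtx2 (-0.41), Rfng (-0.39) and Dtx4 (-0.40) were lower. Dlk2 was called in both comparisons with Tcf21 P30 without that library, on 10 and 3 counts in the Postn P7 pair, 0 in Tcf21 P30 replicates 2 and 3, and 12 and 7 in Tcf21 P7; replicate 1 had 10 counts.

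The genes most like each called member over the 7 libraries were sought among 11616 genes by the root mean square difference of centred log2(CPM + 1) values. For Hey2 they were Zfp711 (0.194), Strip2 (0.199) and Miga1 (0.228). For Notch3 they were Hmcn1, a matrix protein gene (0.181), Cdca3 (0.198) and Tmem108 (0.203), and for Jag1 they were Mbtd1 (0.114), Tnnt1 (0.128) and Kalrn (0.136). For Heyl they included Zfp598 (0.045) and Ddx31 (0.065), and for Hes1 they were Mrpl11 (0.031), Cebpzos (0.038) and Qdpr (0.039). Among the members themselves Notch1 and Hey1 were nearest to each other (0.321), Dll4 was nearest to Nrarp (0.498) and Notch3 to Jag1 (0.393). Hes1 and Heyl varied least over the libraries, with a root mean square spread of 0.181 and 0.226 on the log2 scale, and Notch3 and Dll4 most, with 0.924 and 0.905. Over the 6 libraries without Tcf21 P30 replicate 1, also chosen after the data were seen, Jag1 kept 0 of its 3 most similar genes and Notch3, Hes1, Hey2 and Heyl kept 1 each. Dll4 was then nearest to Notch1 (0.236), Notch3 to Nrarp (0.331) and Hey1 to Jag1 (0.302), and the spread of Dll4 was 0.463, so the nearest genes and members depended on that library.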

How the data were processed

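RNA was sequenced from 7 libraries of GFP-sorted cardiac cells on an Illumina HiSeq, per the labels. The authors deposited raw counts per gene. STAR and GRCm38 are named in the submitters' processing notes; for the counting tool and its use of strand the labels give no entry. The counts were tested as deposited in R 4.3.3 with edgeR 4.0.16 (TMM scaling, filterByExpr, robust quasi-likelihood fit of all 7 libraries, Benjamini-Hochberg over 17636 genes, threshold 0.05). Normalised CPM divides by the effective library size. Gene spans and exon lengths came from GENCODE M21. All members were named, as were called genes of the other pathway lists (otherwise the one with the highest CPM), and the 3 most similar genes of each called member, leaving out predicted genes and genes under 5 CPM in every group; a few named genes are not reported here. The members, lists and left-out libraries were chosen with earlier results of these data known. Alternatives used DESeq2 1.42.0, limma 3.58.1, other scalings, no filter, other libraries and a replicate block. Same-numbered libraries of different groups were not shown to be paired, so the fit has no block. No columns of the table were left unused.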

Additional observations from a re-analysis of the deposited data

How the results depend on the processing

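Of 510 refits of a single member's log2 fold change (17 alternatives, 10 members, 3 comparisons), 389 kept direction and call, 66 lost the call, 27 gained one and 28 changed sign. The cause was not tested except where given. The number of members called between Postn P7 and Tcf21 P7 was 1 with upper-quartile factors, 5 without a filter, 0 with the Tcf21 P7 libraries summed and 0 to 4 when leaving out 1 library. Between Tcf21 P30 and Tcf21 P7 it was 5 without a filter, 1 with only the groups compared, 6 without both endothelial-rich libraries (Postn P7 replicate 1 and Tcf21 P30 replicate 1), 0 with the Tcf21 P7 libraries summed and 0 to 6 when leaving out 1 library. Between Postn P7 and Tcf21 P30 it was 7 without a filter, 1 with only the groups compared, 1 with the Tcf21 P7 libraries summed and 1 to 7 when leaving out 1 library. Without a filter the prior degrees of freedom were infinite for all 33172 genes, against a median of 4.02 with it, so each gene's own spread no longer entered its test. With the replicate block, members called numbered 2 between Postn P7 and Tcf21 P7, 3 between Tcf21 P30 and Tcf21 P7 and 4 between Postn P7 and Tcf21 P30. Calls over all genes changed between settings too, and they are not given here for every setting. A change in the number of members called is therefore not read as a result about the members. Deviations of same-numbered libraries from their group means correlated at 0.38 and 0.41 between Postn P7 and Tcf21 P30, and at 0.05 to 0.09 otherwise. In a group of 2 libraries these deviations mirror each other, so the correlations cannot decide whether libraries are paired. The labels state no pairing, and the main fit has no block. Over all genes, calls between Postn P7 and Tcf21 P7 numbered 3442 without a filter, 3750 without both endothelial-rich libraries, 123 with the Tcf21 P7 libraries summed and 111 to 3250 when leaving out 1 library. Between Tcf21 P30 and Tcf21 P7 they numbered 2463 with those libraries summed and 2418 to 6063 when leaving out 1 library, and between Postn P7 and Tcf21 P30 2810 to 5072 when leaving out 1 library.

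Signs changed as follows. In Postn P7 minus Tcf21 P7, Notch3 was at -0.15 without both endothelial-rich libraries and at -0.16 to 0.67 when leaving out 1 library. Jag1 was at 0.02 with upper-quartile factors, 0.11 with library size alone, 0.02 with only the groups compared and -0.20 to 0.14 when leaving out 1 library. Dll4 was at -0.05 with the replicate block, -0.39 without both endothelial-rich libraries and -0.40 to 0.44 when leaving out 1 library. In Tcf21 P30 minus Tcf21 P7, without both endothelial-rich libraries Notch1 was at -0.39, Dll4 at -0.86 (adjusted p = 9.7e-04) and Nrarp at -1.16 (adjusted p = 7.2e-05). Nrarp was at -0.41 with limma-voom. When leaving out 1 library, Notch1 was at -0.39 to 0.45, Dll4 at -0.86 to 1.23, Hey2 at -0.59 to 0.21 and Nrarp at -1.15 to 0.42. In Postn P7 minus Tcf21 P30, Notch2 was at 0.07 with library size alone, 0.20 with the replicate block and -0.24 to 0.21 when leaving out 1 library. Dll4 was at 0.47 without both endothelial-rich libraries and -1.21 to 0.97 when leaving out 1 library. With pseudocounts of 0.1 and 5 in place of 1, Hes1 kept 3 and 2 of its 3 most similar genes, and Notch3, Jag1, Hey2 and Heyl kept 2 and 1 each. With 2 or 3 libraries in a group, intervals are wide for Dll4, Nrarp, Notch1 and Notch3, and Hey2 rests on 45 to 223 counts a library.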
